A study of Mus musculus with 8 samples.

Results

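The genes described here are 10 that carry dietary lipid into and through the absorptive cell of the gut: the sterol transporters Npc1l1, Abcg5, Abcg8 and Abca1, the scavenger receptors Scarb1 and Cd36, the cholesterol esterifying enzyme Soat2, and the triglyceride enzymes Mogat2, Dgat1 and Dgat2. They were chosen by gene symbol from the 23393 genes of an expression table, and all 10 were in it. Poly(A) RNA was measured in 8 libraries of gut epithelium from mouse embryos at stage E16.5, with 2 libraries each from the proximal part of the small intestine (called intestine below), the colon, the hindstomach (the glandular part of the stomach) and the forestomach (its squamous part). Per the labels' protocols the embryos were untreated and carried ShhCre;R26YFP/+, a Cre driven from the Shh locus with a Cre-dependent YFP reporter, in all 4 tissues, and the epithelium for RNA was frozen as isolated rather than sorted. Intestine and colon epithelium was shaken off in 5 mM EDTA and hindstomach epithelium in 10 mM EDTA, while forestomach epithelium was treated with Dispase and peeled off by hand, so tissue and isolation cannot be told apart for either part of the stomach. Nothing in the labels says that replicates 1 and 2 of a tissue come from separate embryos, and the p-values below cover no more than the spread between libraries, which may be technical.

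An enterocyte takes cholesterol from the lumen through the apical transporter Npc1l1, and the heterodimer of Abcg5 and Abcg8 pumps sterols, above all plant sterols, back out. Cholesterol that stays is esterified by Soat2 for export in chylomicrons, or leaves across the basolateral membrane through Abca1. Fatty acids and monoacylglycerol are rebuilt into triglyceride by Mogat2, which makes diacylglycerol, and by Dgat1 and Dgat2, which add the last fatty acid.

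The members sit at 9 places in the genome (GRCm38, GENCODE M21), since Abcg5 and Abcg8 lie head to head. Abcg5 lies on chromosome 17 from 84658234 to 84683011 on the minus strand and Abcg8 from 84676302 to 84700333 on the plus strand, and their annotated exons share 82 bases on opposite strands. Without a stated strand setting, reads from those bases cannot be assigned. Mogat2 likewise shares 55 exonic bases with the antisense gene Gm45012. Mogat2 and Dgat2, both on the minus strand of chromosome 7 (99219084 to 99238619 and 99153658 to 99182719), are 36364 bases apart with 0 annotated genes between them. The other 6 members are scattered: Npc1l1 on chromosome 11 (6211013 to 6230143), Abca1 on chromosome 4 (53030787 to 53159895), Scarb1 and Cd36 on chromosome 5 (125277087 to 125341094 and 17781690 to 17888801), and Soat2 and Dgat1 on chromosome 15 (102150526 to 102163469 and 76502015 to 76511953). All 10 are annotated as protein coding.

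Promoter windows of 300 bases, 250 before and 50 from a transcript start, came from RefSeq (GRCm38.p6) for 5 of the 10 members, namely Npc1l1, Abcg5, Abcg8, Abca1 and Cd36. They were searched on both strands for AGATAA (a form of the site of Gata4 and its relatives), TTTATGG (Cdx) and CAAAGTCCA (HNF4). Also searched were CACGTG (the E-box) and TATAAA (a core promoter box). The search included consensus strings of HNF1, of the liver X receptor (a direct repeat spaced by 4 bases) and of SREBP (the sterol response element). Abcg8 and Npc1l1 both lay above their hindstomach levels in the intestine and colon, and so did Abcg5 and Cd36. Abca1 lay above its hindstomach level in the colon but overlapped between intestine and hindstomach. Sequences are given for Abcg8, Npc1l1 and Abca1, with capitals marking a match on either strand.
Abcg8 (chr17:84682871-84683170, plus strand): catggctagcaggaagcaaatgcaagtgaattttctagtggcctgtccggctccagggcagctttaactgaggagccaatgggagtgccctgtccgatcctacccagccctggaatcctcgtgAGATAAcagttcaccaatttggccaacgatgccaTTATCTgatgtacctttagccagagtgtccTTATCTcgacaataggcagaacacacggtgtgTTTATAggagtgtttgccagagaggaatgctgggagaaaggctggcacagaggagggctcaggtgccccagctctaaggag
Npc1l1 (chr11:6230196-6230495, minus strand): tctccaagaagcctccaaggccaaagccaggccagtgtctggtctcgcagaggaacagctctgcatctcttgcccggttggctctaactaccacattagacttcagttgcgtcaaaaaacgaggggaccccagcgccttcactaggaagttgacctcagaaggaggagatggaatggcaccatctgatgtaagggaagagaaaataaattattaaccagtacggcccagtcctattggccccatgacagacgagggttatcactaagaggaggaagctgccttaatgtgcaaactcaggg
Abca1 (chr4:53159846-53160145, minus strand): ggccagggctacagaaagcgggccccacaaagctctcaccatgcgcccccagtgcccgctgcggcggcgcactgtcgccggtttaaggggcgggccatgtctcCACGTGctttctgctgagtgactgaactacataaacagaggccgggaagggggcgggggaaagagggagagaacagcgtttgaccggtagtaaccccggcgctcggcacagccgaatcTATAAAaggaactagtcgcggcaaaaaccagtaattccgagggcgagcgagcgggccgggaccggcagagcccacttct
The Abcg8 window held 3 matches to AGATAA, at -127, -93 and -63 from the Abcg8 start, and a TATAAA on the opposite strand at -31. The RefSeq starts of Abcg8 and Abcg5 are 110 bases apart, so the Abcg5 window (chr17:84682962-84683261) shares 209 bases with this one and holds the same 3 AGATAA and the same TATAAA, which reads in the direction of Abcg5. Of all 32851 promoter windows of this length, 11.2% held at least 1 AGATAA and 0.107% at least 3. The Npc1l1 and Cd36 windows held no exact match to the 8 strings searched, and neither did the window at a second Abcg8 start (chr17:84676052-84676351). The Abca1 window held a CACGTG at -147, a motif in 7.15% of windows, and a TATAAA at -29, in 13.6%. A match shows only that the letters are present, and near matches were not counted. The HNF4 string was in 0.475% of all windows and that of HNF1 in 0.0609%. Those of SREBP and the liver X receptor were in 0.0913% and 0.0152%. The absence of a string, AGATAA among them, does not show that a window lacks a site, since other forms of these sites were not searched.

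Values are the FPKM computed by the authors, which scale fragments by the length of the transcript and the size of the library, so that levels of different genes can be set side by side. The summed FPKM of a library ran from 328490 to 378497 in 7 libraries and reached 545227 in the library labelled forestomach replicate 1, where the 10 most abundant genes held 52.5% of the sum against 6.27% to 17.4% elsewhere. Read numbers are unknown. The spacing of low values gave depths of 0.426 to 0.946 relative to intestine replicate 1, uncertain by a factor of 2, and no counting interval can be given. Tissue labels were checked against marker lists. All 10 enterocyte markers reached 1 FPKM in the intestine, colon and hindstomach libraries, all 12 gastric glandular markers did so in both hindstomach libraries and also in the library labelled forestomach replicate 1, and all 12 squamous markers in both forestomach libraries. That level is low, since 9 gastric markers also reached it in intestine replicate 1 and 7 in forestomach replicate 2. The gastric markers summed to 167214 FPKM in the library labelled forestomach replicate 1, against 2551 and 6811 FPKM in hindstomach replicates 1 and 2. The library labelled forestomach replicate 1 therefore holds squamous and gastric transcripts together, with the highest sums of mesenchyme markers (3656 FPKM) and, as given below, of macrophage and adipocyte markers. It correlated less with forestomach replicate 2 (r = 0.713 over genes, which are not independent replicates) than with hindstomach replicates 1 and 2 (0.778 and 0.802). The same held for forestomach replicate 2, whose r with hindstomach replicates 1 and 2 was 0.733 and 0.717. Because of its mixed markers, every comparison is given with and without the library labelled forestomach replicate 1. For colon replicate 1, r was 0.972 with intestine replicate 1 and 0.959 with the other colon library.

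In the intestine the triglyceride enzymes were the most abundant of the 10 genes. Dgat2 stood at 357 and 476 FPKM and Mogat2 at 242 and 292 FPKM in intestine replicates 1 and 2, above 99.0% of all genes in the table in both libraries. Mogat2, Dgat1 and Dgat2 together made up 79.2% of the summed FPKM of the 10 genes in each intestine library. Npc1l1 (63.3 and 86.8 FPKM), Cd36 (50.2 and 54.9) and Soat2 (44.5 and 61.0) formed a middle tier, while Scarb1 (10.7 and 9.80), Abcg5 (5.92 and 10.0), Abcg8 (3.20 and 7.76) and Abca1 (0.848 and 0.466) were low. The order of neighbours among the low genes is not firm, since the Abcg5 and Abcg8 values overlap.

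**Figure D1:**
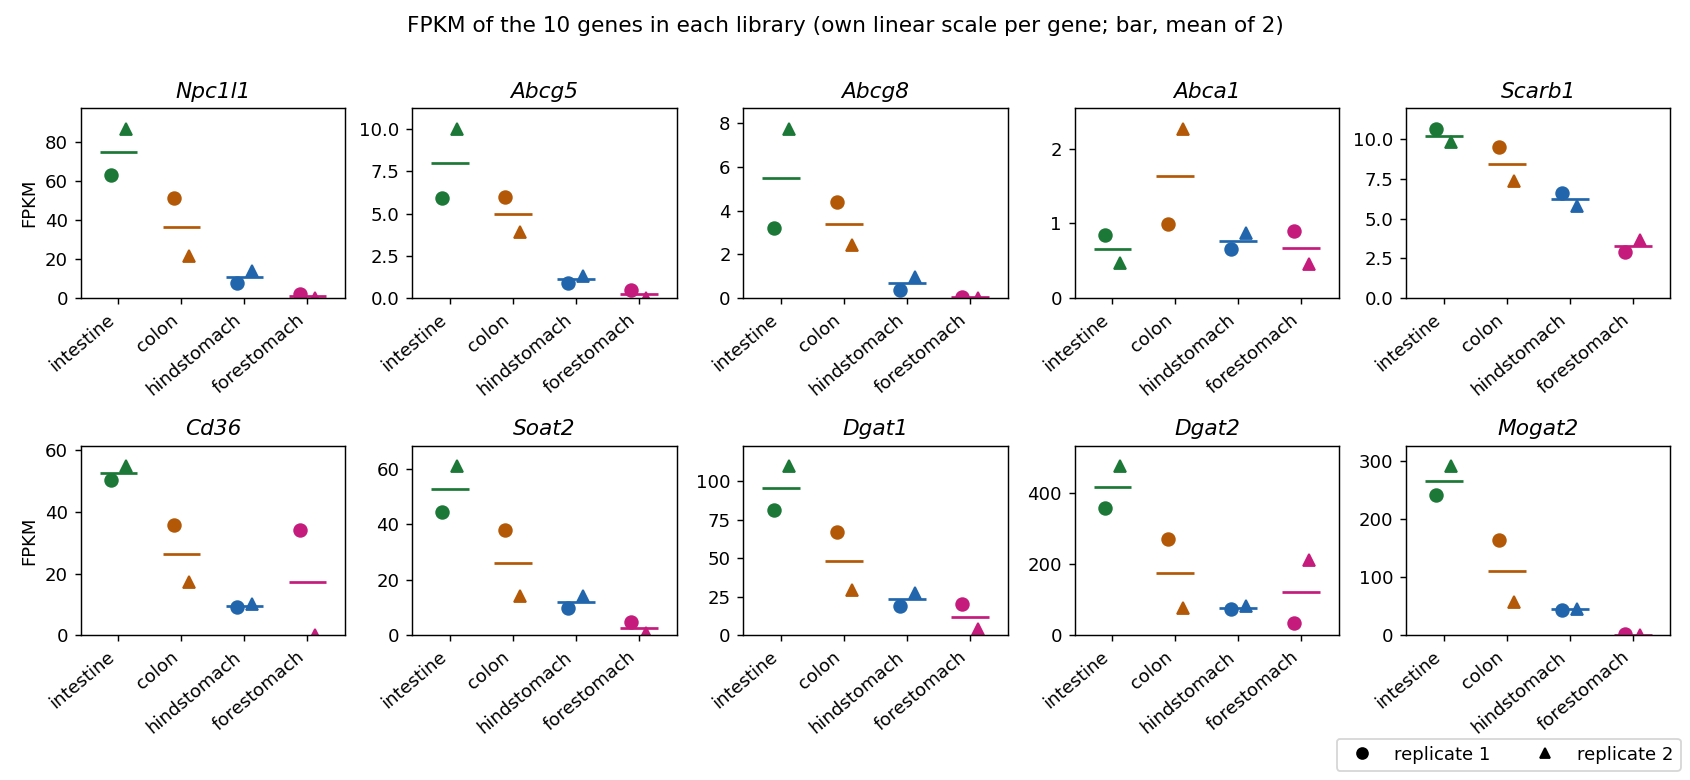
FPKM (vertical axis, own linear scale per gene from 0) of the 10 genes in the intestine, colon, hindstomach and forestomach, each library drawn as a point (circle, replicate 1; triangle, replicate 2) and each tissue mean as a bar. In 9 of 10 genes both intestine libraries lie above both hindstomach libraries, as in 24.3% of all 12894 tested genes. Abca1 is the exception, and the forestomach pair is split for Cd36 and Dgat2.

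Npc1l1, the sterol importer, stood at 63.3 and 86.8 FPKM in intestine replicates 1 and 2, at 51.5 and 21.4 in the colon, at 7.48 and 13.9 in the hindstomach and at 2.17 and 0.020 in the forestomach. No library of a tissue overlapped with those of another, in the order intestine, colon, hindstomach, forestomach. In these bulk samples fewer cells of a type and less RNA per cell cannot be told apart. The intestine exceeded the forestomach by 5.39 ± 0.66 (log2 fold change of FPKM + 1 ± SE, adjusted p = 0.00434 by limma), a call that held in each of 15 alternative analyses. The difference between intestine and hindstomach, 2.74 ± 0.66, had an adjusted p = 0.0683 with all libraries, and of 0.0128 once the library labelled forestomach replicate 1 was left out. The colon exceeded the forestomach by 4.25 ± 0.66 (adjusted p = 0.0128), but not without colon replicate 1 (adjusted p = 0.11).

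The exporter genes Abcg5 and Abcg8 followed each other across libraries (r = 0.987 of log2(FPKM + 1) over 8 libraries, a description). Abcg5 had 5.92 and 10.0 FPKM in the intestine, 5.99 and 3.93 in the colon, 0.916 and 1.31 in the hindstomach, and 0.488 in the library labelled forestomach replicate 1, while it was listed at 0 in forestomach replicate 2. Abcg8 had 3.20 and 7.76 FPKM in the intestine, 4.39 and 2.42 in the colon, 0.37 and 0.966 in the hindstomach, and 0.071 in the library labelled forestomach replicate 1, and was also listed at 0 in forestomach replicate 2. The intestine and colon values overlap for both genes, whereas both tissues lie above the hindstomach without overlap. Abcg5 was the only member called between intestine and hindstomach with all libraries, at 2.05 ± 0.35 on the log2 scale (limma, adjusted p = 0.0327). That call ended without any 1 of the intestine or hindstomach libraries. It also ended in 3 other analyses that kept all libraries (limma, adjusted p up to 0.123). Both genes rose in the intestine relative to the forestomach, Abcg5 by 2.84 ± 0.35 (adjusted p = 0.00446) and Abcg8 by 2.55 ± 0.43 (adjusted p = 0.0112), and both rose in the colon relative to the forestomach, by 2.27 ± 0.35 (adjusted p = 0.0127) and 2.05 ± 0.43 (adjusted p = 0.0312). The Abcg8 call for the intestine ended without intestine replicate 2 (adjusted p up to 0.078), and the Abcg5 call for the colon without colon replicate 1 (adjusted p up to 0.107). The Abcg8 call for the colon ended in 8 of 15 alternative analyses, with adjusted p up to 0.164. Within a library Abcg5 was 1.29 to 2.48 times as abundant as Abcg8 in intestine, colon and hindstomach. The ratio of Npc1l1 to Abcg5, importer to exporter, was 10.7 and 8.67 in the intestine, 8.60 and 5.43 in the colon and 8.16 and 10.5 in the hindstomach. The hindstomach ratios overlap with those of the intestine and of the colon, and the colon ratios lie below both intestine ratios.

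Abca1, which exports cholesterol to apolipoprotein A-I, did not share this distribution. It stood at 0.848 and 0.466 FPKM in the intestine, 0.99 and 2.27 in the colon, 0.652 and 0.877 in the hindstomach and 0.897 and 0.457 in the forestomach. Only colon replicate 2 reached 1 FPKM, so Abca1 did not pass the filter on low values (at least 1 FPKM in at least 2 libraries), and the tests cover 9 of 10 members. Fitted without the filter, its difference was -0.63 ± 0.30 for intestine minus colon (log2 fold change ± SE, limma adjusted p = 0.404) and between -0.10 and 0.08 among intestine, hindstomach and forestomach. Colon replicate 2 also had the highest summed level of the 10 endothelial markers (81.4 FPKM against 2.39 to 37.8 in the other 7 libraries), and its sums of the 10 macrophage markers (82.6 FPKM) and the 12 mesenchyme markers (1460 FPKM) were above those of colon replicate 1 (42.2 and 653 FPKM). Both sums were higher still in the library labelled forestomach replicate 1 (149 and 3656 FPKM), where Abca1 was at 0.897 FPKM. Their part in the Abca1 value was not tested.

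Scarb1, the receptor SR-BI for high density lipoprotein, had the smallest log2 fold change of the 9 tested members in each comparison of the intestine with another tissue, using all libraries. It had 10.7 and 9.80 FPKM in the intestine, 9.52 and 7.35 in the colon, 6.64 and 5.82 in the hindstomach and 2.93 and 3.66 in the forestomach, with no overlap between tissues. The intestine exceeded the forestomach by 1.39 ± 0.21 on the log2 scale (limma, adjusted p = 0.00832), a call that ended without either intestine library (adjusted p up to 0.085). The colon exceeded the forestomach by 1.13 ± 0.21 (adjusted p = 0.0225), which ended in 8 of 15 alternative analyses (adjusted p up to 0.261). Between intestine and hindstomach the difference was 0.64 ± 0.21 (adjusted p = 0.133). Leaving out the library labelled forestomach replicate 1 gave an adjusted p = 0.0337, at a difference below 2-fold.

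Cd36, a scavenger receptor of the same family that binds long-chain fatty acids, differed widely between the forestomach libraries. It stood at 50.2 and 54.9 FPKM in the intestine, 35.6 and 17.3 in the colon and 9.06 and 10.3 in the hindstomach, but at 0.255 in forestomach replicate 2 and 34.2 in the library labelled forestomach replicate 1. The forestomach values thus lie on either side of all hindstomach values. With all libraries none of its comparisons was called (log2 fold changes of 3.01 ± 1.42 for intestine minus forestomach, adjusted p = 0.198, and 2.33 ± 1.42 for intestine minus hindstomach, adjusted p = 0.356). When the library labelled forestomach replicate 1 was left out, the intestine exceeded the hindstomach by 2.33 ± 0.32 (limma, adjusted p = 0.00734). The intestine then exceeded the forestomach by 5.41 on the log2 scale, with forestomach replicate 2 as the lone library of that tissue. That value depends on which forestomach library is kept, since they stood at 0.255 and 34.2 FPKM. The library labelled forestomach replicate 1 also had the highest summed level of the 8 adipocyte markers (172 FPKM against 6.90 to 55.1 in the others) and of the 10 macrophage markers (149 FPKM, the next highest being 82.6). The adipocyte hormone Adipoq stood at 7.05 FPKM in it and was listed at 0 in the other 7 libraries, and Cfd, the adipocyte protease adipsin, at 34.7 FPKM against 0 in 6 libraries and 0.0094 in hindstomach replicate 1. The 10 enterocyte markers had a median there at 0.118% of their intestine mean and summed to 81.8 FPKM, with 4 of them above 1 FPKM (Anpep at 49.8, Vil1 at 16.9, Fabp2 at 12.8 and Hnf4g at 1.73). Which cells supplied Cd36 in that library was not tested.

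Soat2, which esterifies cholesterol in enterocytes and hepatocytes, stood at 44.5 and 61.0 FPKM in the intestine, 38.1 and 14.2 in the colon, 9.73 and 14.2 in the hindstomach and 4.71 and 0.946 in the forestomach. Colon replicate 2 and hindstomach replicate 2 had nearly the same value. The intestine exceeded the forestomach by 3.99 ± 0.64 on the log2 scale (limma, adjusted p = 0.00974), a call that ended without either intestine library (adjusted p up to 0.0807). The colon exceeded the forestomach by 2.87 ± 0.64 (adjusted p = 0.0369), and 10 of 15 alternative analyses ended that call (adjusted p up to 0.21). Soat1, the other sterol acyltransferase gene, found in most tissues, had 13.9 and 13.7 FPKM in the intestine, 11.3 and 10.2 in the colon, 9.40 and 8.49 in the hindstomach and 3.41 and 2.21 in the forestomach. The ratio of Soat2 to Soat1 was accordingly 3.21 and 4.46 in the intestine, 3.37 and 1.39 in the colon, 1.04 and 1.67 in the hindstomach and 1.38 and 0.427 in the forestomach. Both intestine ratios exceed both hindstomach ratios, while the colon ratios overlap with those of both tissues.

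Mogat2, the monoacylglycerol acyltransferase of the small intestine, separated the forestomach from the rest most sharply. It had 242 and 292 FPKM in the intestine, 164 and 57.0 in the colon, 44.2 and 46.1 in the hindstomach and 2.28 and 0.84 in the forestomach, without overlap between tissues. The intestine exceeded the forestomach by 6.76 ± 0.52 (log2 fold change ± SE, adjusted p = 0.00102), a call that held in each of 15 alternative analyses. The colon exceeded the forestomach by 5.32 ± 0.52 (adjusted p = 0.00277) and the hindstomach exceeded it by 4.23 ± 0.52 (adjusted p = 0.0121), the only call of a member between the 2 parts of the stomach with all libraries, which ended without either hindstomach library (adjusted p up to 0.131). Intestine minus hindstomach was 2.53 ± 0.52, just outside the threshold (adjusted p = 0.0504). The related gene Mogat1 was at most 1.14 FPKM in 7 libraries and at 141 FPKM in the library labelled forestomach replicate 1, where Mogat2 was at 2.28. Mogat1 was named after its values were seen.

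Dgat1 and Dgat2 catalyse the same last step of triglyceride synthesis but belong to unrelated protein families. Dgat1 stood at 81.2 and 109.7 FPKM in the intestine, 67.3 and 29.1 in the colon, 19.0 and 27.6 in the hindstomach and 20.3 and 4.17 in the forestomach. It was called between intestine and forestomach (3.19 ± 0.72 on the log2 scale, adjusted p = 0.028), which ended in 6 of 15 alternative analyses, among them those without either intestine or either hindstomach library (adjusted p up to 0.162). Dgat2 stood at 357 and 476 FPKM in the intestine, 272 and 75.8 in the colon, 73.0 and 81.7 in the hindstomach, and at 212 in forestomach replicate 2 and 34.6 in the library labelled forestomach replicate 1. The forestomach values lie on either side of both hindstomach values, and no comparison of Dgat2 was called with all libraries (intestine minus forestomach 2.25 ± 0.93, adjusted p = 0.15). Among the 9 tested members Dgat2 was the only one with a negative value for hindstomach minus forestomach, -0.15 ± 0.93 with all libraries (adjusted p = 0.925) and -1.45 ± 0.70 without the library labelled forestomach replicate 1 (adjusted p = 0.167). The ratio of Dgat2 to Dgat1 within a library was 4.40 and 4.34 in the intestine, 4.05 and 2.61 in the colon, 3.84 and 2.96 in the hindstomach and 1.71 and 50.8 in the forestomach. In forestomach replicate 2 Dgat2 exceeded 99.0% of genes, its neighbour Mogat2 stood at 0.84 FPKM, and the enterocyte markers had a median at 0.040% of their intestine mean, with Anpep at 8.07 and Vil1 at 1.19 FPKM. The 12 squamous markers summed there to 38130 FPKM, against 1465 FPKM in the library labelled forestomach replicate 1, where Dgat2 was lower. The part of squamous cells in the Dgat2 level was not tested.

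Across the 10 genes together, both intestine libraries lay above both hindstomach libraries in 9 genes (as in 24.3% of all 12894 tested genes), and above both forestomach libraries in 9 (34.6% of all tested genes). Both intestine libraries lay above both colon libraries in 7 genes and below them in Abca1 (18.9% and 57.6% of all tested genes). Between colon and hindstomach 8 genes were higher in both colon libraries (30.8% of all tested genes), between colon and forestomach 8 (45.8%), and between hindstomach and forestomach 6 were higher in both hindstomach libraries (47.5%). The last share is near the background.

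Tested across all 12894 genes, 7 of the 9 tested members rose in the intestine relative to the forestomach and 0 fell, against 11.3% of all genes called higher and 5.78% lower (limma, adjusted p under 0.05 and at least 2-fold). The members' median log2 fold change was 3.01, against 0.11 over all genes. Without the library labelled forestomach replicate 1, 8 members rose, against 16.6% of all genes, all but Dgat2 (0.96 ± 0.70, adjusted p = 0.334). In the colon relative to the forestomach 6 of 9 rose and 0 fell (9.2% of all genes higher and 2.41% lower; median 2.11, against 0.41 over all genes), and 8 rose without that library (19.1% of all genes). The colon count fell without either colon or either hindstomach library, and the intestine count over the forestomach fell without either intestine library. Calls over all genes are not given for these settings, so a loss particular to the members cannot be told from a general one. The intestine relative to the hindstomach gave 1 higher member and 0 lower with all libraries (2.55% of all genes higher and 2.47% lower; median 2.06, against -0.25 over all genes), and 8 higher without that library (7.42% of all genes), all but Scarb1. Leaving out forestomach replicate 2 in its place gave as many member calls, and nearly as many calls over all genes. Leaving out any 1 intestine or hindstomach library ended the member call, but also almost every call over all genes. That loss is therefore not particular to the members. The hindstomach relative to the forestomach gave 1 higher member (4.26% of all genes higher and 1.33% lower; median 0.79, against 0.39 over all genes), Mogat2, and 5 without that library (14.3%), adding Npc1l1, Cd36, Soat2 and Dgat1. The count also rose when forestomach replicate 2 was left out instead, and Mogat2 was not called without either hindstomach library. Shares over all genes are not given for these settings.

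The members gave no call between intestine and colon or between colon and hindstomach with all libraries. Intestine minus colon gave 0 calls among the 9 members (0% of all genes higher and 0.38% lower by limma, and 0.04% higher without the library labelled forestomach replicate 1), although 1 member, Mogat2, had an unadjusted p under 0.05 and 4 did without that library. All 9 log2 fold changes were positive, as were 28.2% of those of all genes, and their median was 1.07 against -0.23 over all genes. They ran from 0.26 ± 0.21 for Scarb1 to 1.51 ± 0.93 for Dgat2, with adjusted p from 0.332 to 0.749. None passed the threshold, which does not show that the tissues are alike. Colon minus hindstomach also gave 0 calls (1.07% of all genes higher and 0.434% lower), with 2 members at an unadjusted p under 0.05, and 1 call without that library, Abcg5 at 1.48 ± 0.30 (adjusted p = 0.0352, 4.49% of all genes higher). The colon pair itself was split: colon replicate 1 exceeded colon replicate 2 in 9 of 10 members, by 1.30 times for Scarb1 and by 3.59 times for Dgat2, and colon replicate 2 exceeded it for Abca1.

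**Figure D2:**
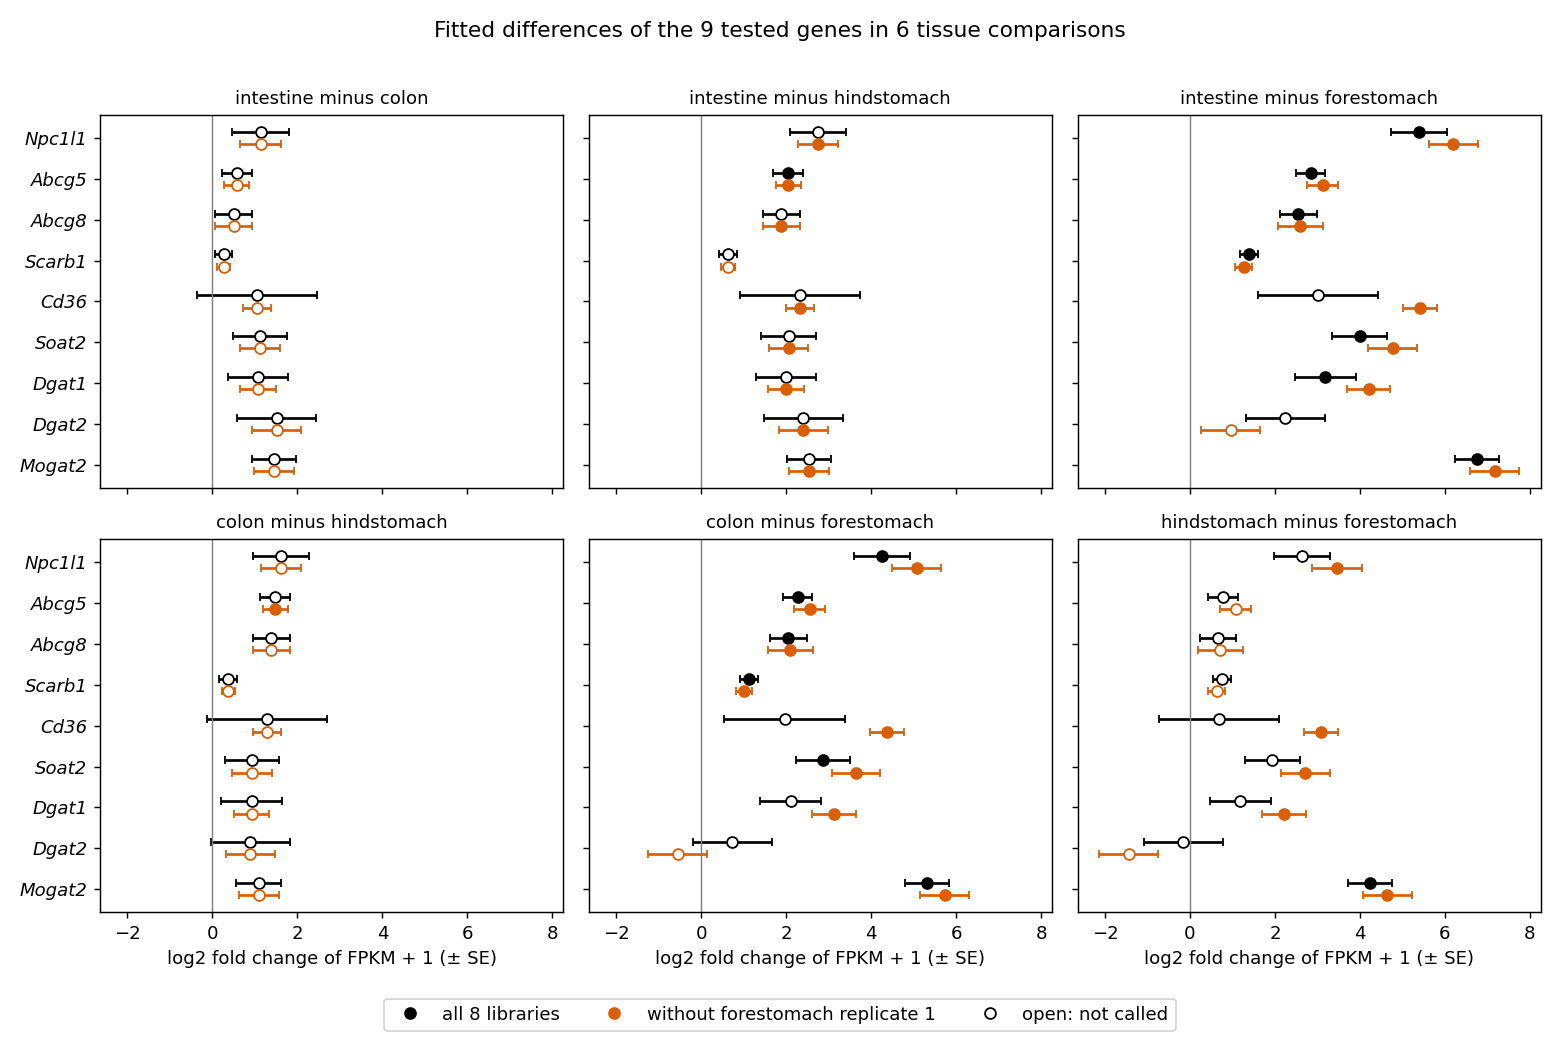
Log2 fold change of FPKM + 1 with its standard error (horizontal axis) for the 9 tested genes in 6 tissue comparisons, in black with all 8 libraries and in orange without the library labelled forestomach replicate 1, filled where called at an adjusted p under 0.05 and at least 2-fold. Mogat2 and Npc1l1 lie farthest from 0 in intestine minus forestomach, at 6.76 and 5.39, and Cd36 and Dgat2 move most when that library is left out.

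The comparisons share libraries and their counts are therefore not independent. The spread is pooled over the 4 tissues, so the split forestomach pair also widens the errors of comparisons in which it takes no part, as for Cd36 between intestine and hindstomach (SE 1.42 with all libraries and 0.32 without the library labelled forestomach replicate 1, at the same log2 fold change of 2.33).

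Most enterocyte markers were also higher in both intestine libraries than in the colon, and all 10 were higher than in the hindstomach. The exception in the colon was Cdx1, which encodes a homeobox factor of the bowel, at 79.6 and 84.8 FPKM in the intestine against 138 and 134 in the colon. Relative to the mean of the intestine libraries, the 10 enterocyte markers had a median of 74.5% (from 63.8% to 167%) in colon replicate 1 and 39.7% (from 17.8% to 163%) in colon replicate 2. In hindstomach replicates 1 and 2 the median was 17.9% (from 10.9% to 27.4%) and 16.9% (from 10.9% to 30.2%). Over 8 members (all but Abca1 and Scarb1) the same quantity ran from 61.5% for Mogat2 to 80.1% for Abcg8 in colon replicate 1 and from 18.2% for Dgat2 to 49.4% for Abcg5 in colon replicate 2. It ran from 6.75% for Abcg8 to 19.9% for Dgat1 in hindstomach replicate 1 and up to 28.9%, again for Dgat1, in hindstomach replicate 2. Scarb1 was outside these ranges, at 64.8% and 56.8% in the hindstomach, and so was Abca1, at 99.3% and 133%. The part of the enterocyte content of each preparation in the members' levels was not tested. The 10 hepatocyte markers summed to 1117 and 1096 FPKM in the intestine, 685 and 302 in the colon, 570 and 309 in the hindstomach and 139 and 2.41 in the forestomach. Cps1, which enterocytes also express, made up 820 and 954 FPKM of the intestine sums, while Alb stood at 47.8 and 0.257 FPKM in the intestine and at 168 and 57.2 in the hindstomach. The 11 pancreatic acinar markers summed to 2406 and 415 FPKM in the intestine, 1527 and 463 in the colon, 3731 and 1005 in the hindstomach and 37.3 and 1.91 in the forestomach. Liver cells also use Abcg5, Abcg8, Soat2 and Scarb1, and the part of liver or pancreatic cells was not tested.

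**Figure D3:**
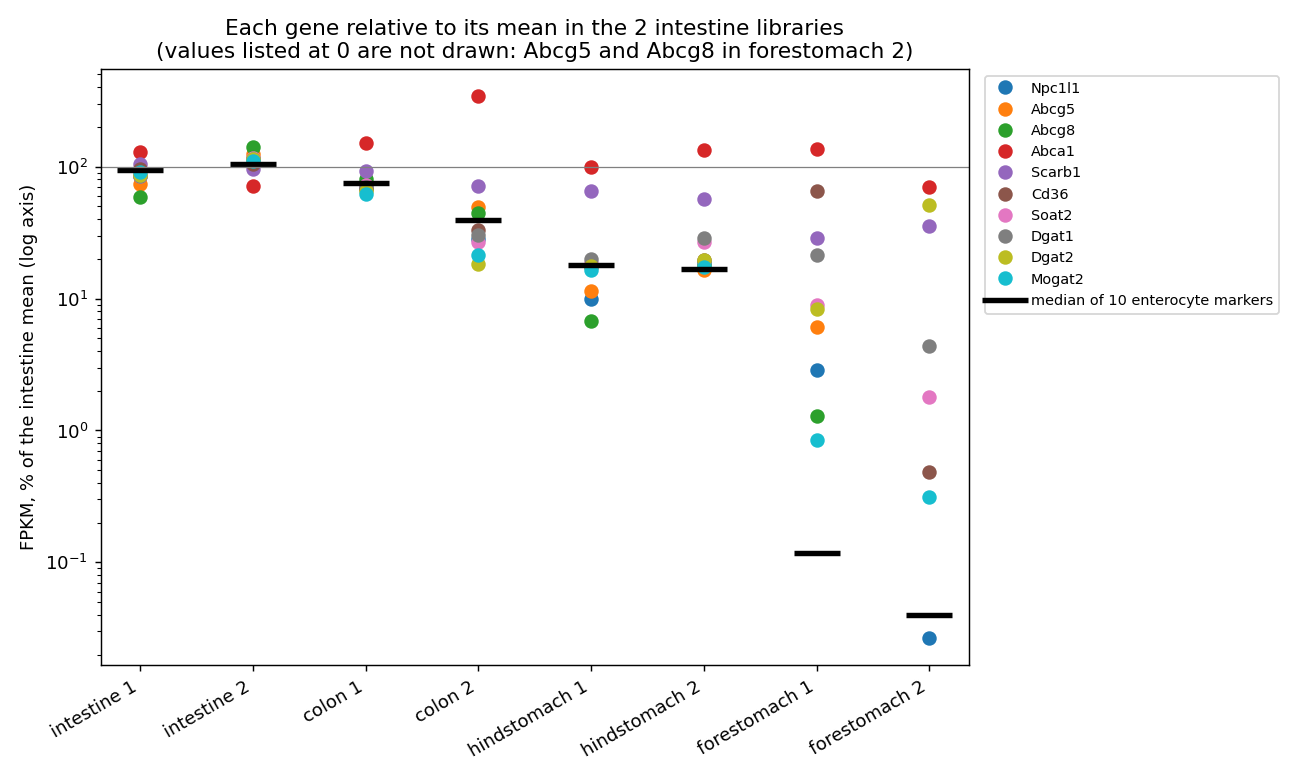
FPKM of each of the 10 genes as a percentage of its mean in the 2 intestine libraries (vertical log axis) in each of the 8 libraries, with a black bar for the median of 10 enterocyte markers. In the hindstomach 8 genes lie around the marker median of 17.9% and 16.9%, with Scarb1 and Abca1 above, and in the forestomach the genes spread over a wide range, with Cd36 at 65.1% in replicate 1 and Dgat2 at 50.9% in replicate 2.

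Among themselves, the 9 tested members had pairwise Pearson correlations of log2(FPKM + 1) over the 8 libraries from 0.18 to 0.99 with a median of 0.90, and the 7 without Cd36 and Dgat2 from 0.83 to 0.99. The libraries fall into tissues and share their contents of other cells, so these values describe the same tissue pattern and carry no test. The closest pair was Npc1l1 and Soat2 (0.993), import and esterification of cholesterol, and the farthest was Cd36 and Dgat2 (0.175). Abca1 correlated at 0.23 or less with every other member.

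**Figure D4:**
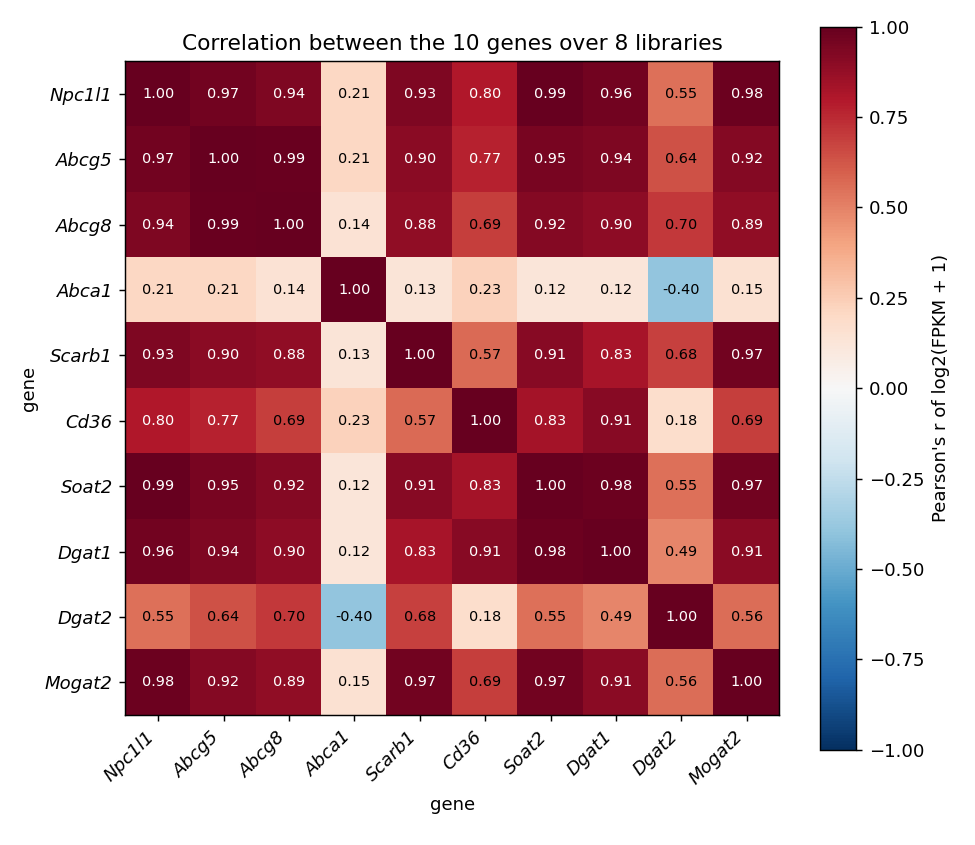
Pearson's r of log2(FPKM + 1) over the 8 libraries between each of the 10 genes (both axes), with the value printed in each cell. Abca1, Dgat2 and, less so, Cd36 stand apart from the block formed by the other genes, and r between Abca1 and Dgat2 is -0.40.

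By the same measure over 8 libraries, the genes most like each member among 12444 named genes were the following. Npc1l1 was most like Faah (r = 0.998), which encodes fatty acid amide hydrolase, Mertk (0.997) and Dnm1 (0.996). Faah stood at 46.5 and 62.5 FPKM in the intestine, 38.2 and 21.1 in the colon, 9.97 and 12.2 in the hindstomach and 4.06 and 0.856 in the forestomach. Soat2 was most like Nadsyn1 (0.997), Fahd1 (0.995) and Dlst (0.995), and Abcg8 was most like Ceacam20 (0.991), Efr3b (0.990) and Myh7b (0.988). Efr3b was also first for Abcg5 (0.997). Mogat2 was most like Ggt1 (0.999), a gamma-glutamyltransferase of the brush border, Clec2e (0.998) and Creb3l3 (0.998), a membrane-bound transcription factor of liver and intestine. Creb3l3 stood at 183 and 221 FPKM in the intestine, 124 and 47.2 in the colon, 27.5 and 28.4 in the hindstomach and 1.02 and 0.446 in the forestomach. The first gene was Scly for Scarb1 (0.995), Cox4i1 for Cd36 (0.990), Cx3cl1 for Dgat1 (0.997) and Acpp for Dgat2 (0.992).

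Other genes of the pathway were counted from lists chosen with earlier results of these data known. Between intestine and hindstomach with all libraries, 2 of 9 chylomicron assembly genes rose and 0 fell, against 2.55% of all genes called higher (median log2 fold change 2.57, against -0.25 over all genes). When the library labelled forestomach replicate 1 was left out 7 rose, against 7.42% of all genes. These backgrounds apply to the lists that follow as well. Mttp, the microsomal transfer protein that loads lipid onto apolipoprotein B, stood at 593 and 657 FPKM in the intestine against 79.8 and 75.4 in the hindstomach (2.99 ± 0.44, adjusted p = 0.0236), and Tm6sf2 at 123 and 150 FPKM against 17.3 and 19.3 (2.83 ± 0.49, adjusted p = 0.0328). Of 8 genes of fatty acid uptake and activation, 1 rose and 0 fell (median 1.63; 6 rose without that library), namely the acyl-CoA synthetase gene Acsl5, at 695 and 901 FPKM against 176 and 184 (2.13 ± 0.41, adjusted p = 0.0434). Of 16 tested genes of the glycerol phosphate route and lipid droplets, 2 rose and 0 fell (median 0.46; 5 of 14 rose without that library, adding Lpin1, Cideb and Cidec). They were the droplet coat genes Plin2, at 167 and 183 FPKM in the intestine against 32.1 and 26.8 in the hindstomach (2.53 ± 0.26, adjusted p = 0.0113), and Plin3, at 346 and 395 FPKM against 99.95 and 103 (1.86 ± 0.31, adjusted p = 0.0319).

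Of 10 liver X receptor genes and targets, 1 rose and 0 fell in the intestine relative to the hindstomach (2.55% of all genes higher; median 0.73, against -0.25 over all genes). When the library labelled forestomach replicate 1 was left out 4 rose (7.42% of all genes), adding Scd1, Scd2 and Lpcat3. Mylip went the other way without a call, at 1.25 and 0.878 FPKM in the intestine against 2.39 and 2.12 in the hindstomach. Abcg1 and Fasn overlapped between these tissues. The gene called with all libraries was the receptor gene Nr1h3 itself (1.91 ± 0.36, limma adjusted p = 0.041). Nr1h3 stood at 11.3 and 12.3 FPKM in the intestine against 2.66 and 2.16 in the hindstomach. Abcg5, Abcg8 and Abca1 are all known targets of that receptor. In the intestine the first pair lay above its hindstomach level, though only Abcg5 was called with all libraries. Abca1, which did not pass the filter on low values, overlapped between these tissues. The part of the receptor in these levels was not tested. Of 11 genes of intracellular sterol trafficking 0 were called by limma with all libraries and 1 fell, Gramd1a, with 0 higher, without that library. Between intestine and colon 0 genes of these 5 lists were called with all libraries. That is near the share over all genes, 0% higher and 0.38% lower, and says nothing particular about the lists.

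FPKM as deposited shifts between tissues, and median-of-ratios scaling moved the median over all genes by over 0.1 on the log2 scale in every comparison but colon minus hindstomach, to -0.03 against -0.25 as deposited for intestine minus hindstomach and to 0.02 against 0.41 for colon minus forestomach. The share of calls over all genes that were higher moved with it, to 63.9% against 50.8% as deposited for intestine minus hindstomach, 55.4% against 66.2% for intestine minus forestomach, 57.4% against 79.2% for colon minus forestomach and 46.7% against 76.1% for hindstomach minus forestomach. No tested member changed direction under that scaling, and it left 3 of the 6 colon over forestomach calls, those of Npc1l1, Abcg5 and Mogat2.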

How the data were processed

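The authors deposited FPKM values as 1 table with 23393 genes and 12 library columns. Of these, 8 match the samples and 4 were left unused because no sample here carries their name. Per the submitters' processing notes, the tools and builds include STAR 2.4.2a and mm10 (GRCm38). How FPKM was computed, with which annotation and strand, is not given in the sources used here. The deposited FPKM became log2(FPKM + 1), which understates changes of low genes, and 12894 genes reaching 1 FPKM in 2 or more libraries were kept. limma 3.58.1 (R 4.3.3) fitted 4 tissue means to the 8 libraries with a trended eBayes prior. Each of 6 comparisons was adjusted by Benjamini-Hochberg over all kept genes, and a call needs an adjusted p under 0.05 and at least 2-fold. Leaving out the library labelled forestomach replicate 1 kept 12502 genes, and the lone forestomach library is then assumed to vary like the other tissues. All 10 members are named, with up to 3 called genes per pathway list by size of change and the nearest genes by Pearson's r. Mogat1 and the single marker genes were named after their values were seen. The members and lists were chosen with earlier results of these data known. The list of sterol synthesis genes is not reported here. The fits were tested on simulated data. Alternatives changed the pseudocount, filter, scaling, trend, tissues fitted or minimum fold, added a replicate block, or left libraries out in turn.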

Additional observations from a re-analysis of the deposited data

How the results depend on the processing

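With 2 libraries per tissue, counts of called members depended on single libraries, and the causes were not tested. Of 810 alternative log2 fold changes (54 member and comparison pairs under 15 settings), 803 kept their direction. Leaving out 1 library in turn gave 0 to 8 called members for intestine minus hindstomach (1 with all libraries), 3 to 8 for intestine minus forestomach (7), 0 to 1 for colon minus hindstomach (0), 1 to 8 for colon minus forestomach (6), 0 for intestine minus colon (0) and 0 to 5 for hindstomach minus forestomach (1). For intestine minus hindstomach the count was 0 with a pseudocount of 0.1 and with no filter, and 8 with only the 2 tissues compared. Over all genes the calls in these 3 settings were 569, 392 and 2296, against 648 in the main fit, so they moved as well. Leaving out an intestine or hindstomach library ended almost every call over all genes in that comparison. For comparisons with the forestomach, calls over all genes are not given, so their ranges do not show a loss particular to the members. With only the 2 tissues compared, the count of members was 2 for intestine minus forestomach and 1 for colon minus hindstomach. It was 0 for both colon and hindstomach against forestomach. Median-of-ratios scaling gave 3 for colon minus forestomach. Dropping the trend or the minimum fold moved no count by over 1.5 times. The replicate block gave 0 for intestine minus hindstomach and left the other counts within 1.5 times. The deviations of same-numbered libraries correlated from -0.578 (intestine and colon) to 0.27 (intestine and hindstomach). These values do not settle whether replicate numbers pair the libraries. Directions changed only where 1 library was left out, in differences that had not been called. Without intestine replicate 1 or 2, Abcg8 in intestine minus colon ran from 1.03 to -0.031. Without colon replicate 2 or 1, Dgat2 in colon minus hindstomach ran from 1.80 to -0.026 and in colon minus forestomach it was -0.18 without colon replicate 1. Without forestomach replicate 2 or 1, Dgat2 ran from 2.03 to -0.56 in colon minus forestomach and from 1.14 to -1.45 in hindstomach minus forestomach. Cd36 ran from -0.44 to 4.37 in colon minus forestomach and from -1.72 to 3.09 in hindstomach minus forestomach. Over all genes the block left 237 calls for intestine minus hindstomach, against 648. Read depth is unknown, so low values such as those of Abcg8 and Abca1 carry no counting error.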
